A study of Rattus norvegicus with 22 samples.

Results

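The genes described here make prostaglandins, thromboxane and leukotrienes, the signalling lipids derived from arachidonic acid. They were 9 of the 17172 genes in a count table of rat hippocampus: Pla2g4a, Ptgs1, Ptgs2, Ptges, Hpgds, Tbxas1, Alox5, Alox5ap and Ltc4s. The list was chosen from the pathway with earlier results of these data known, so counts over it are a description of these genes. All 9 were among the 12875 genes that passed the filter on low counts and were tested. RNA came from the hippocampus on the injured side of 14 adult male Sprague-Dawley rats, from single animals and not from pools. The TBI rats had a moderate lateral fluid percussion injury, in which a pulse of fluid strikes the brain's covering through an opening in the right side of the skull, and the sham rats had the same anesthesia and craniectomy without the pulse. Tissue was taken at day 1 (2 sham, 4 TBI) or day 14 (4 sham, 4 TBI), so every group, sham included, carried the effects of surgery.

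Total counts ranged from 15065540 to 23743703 per sample. In each group replicates differed by more than sampling of reads gives, with chi-square per degree of freedom of at least 13.3. It was 126 for the 2 sham day 1 samples and 52.3 to 171 in TBI day 1. At day 14 it was 13.3 to 45.7 in sham and 16.6 to 52.4 in TBI. All samples held counts of genes of hippocampal neurons such as Prox1 (155 to 2405 counts) and Neurod6 (1053 to 14010 counts). However, 3 libraries stood apart in markers of the choroid plexus, the epithelium that lies against the hippocampus in the ventricle. Counts per 1000000 counts of a library (CPM, scaled by TMM factors that correct for composition) summed over 18 such markers were 11480 in sham day 1 replicate 1, 2132 in TBI day 14 replicate 2 and 8900 in TBI day 14 replicate 3, against 141 to 264 in the other 11 libraries. Among these markers Otx2 was at 0 in all samples. Calls of the 9 genes that change when these libraries are left out are given with the values without them, and calls of the other pathway genes that are lost without them are named. Other tissue markers spread widely in TBI day 1. Sums over 6 genes of hippocampal tissue were 269 to 998 CPM there and 997 to 1132 CPM in sham day 1. They were 1009 to 1118 CPM in sham day 14 and 1007 to 1375 CPM in TBI day 14. Of these 6 genes, 2 were called lower at day 1. Oligodendrocyte sums were 4246 to 15727 CPM in TBI day 1 and 10972 to 14925 CPM in sham day 1. The part of this spread in the day 1 results was not tested. In such bulk tissue, fewer cells of a type and less RNA per cell cannot be told apart.

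Cytosolic phospholipase A2, encoded by Pla2g4a, frees arachidonic acid from membranes. Cyclooxygenases 1 and 2 (Ptgs1, Ptgs2) turn it into prostaglandin H2, from which Ptges makes prostaglandin E2, Hpgds makes prostaglandin D2 and Tbxas1 makes thromboxane A2. In the other arm, 5-lipoxygenase (Alox5) works with its membrane partner FLAP (Alox5ap) to make leukotriene A4, and Ltc4s joins that to glutathione to give leukotriene C4, the parent of the cysteinyl leukotrienes. In brain, cyclooxygenase 2 is an inducible enzyme also found in excitatory neurons at rest, whereas most of the leukotriene machinery and thromboxane synthase are best known from myeloid cells.

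The sequence upstream of 3 of these genes is shown because their levels went different ways: Tbxas1 rose at both days, and the injury effects on Alox5 and Ltc4s shifted in opposite directions between the days. RefSeq promoter entries for the GRCr8 build matched 7 of the 9 genes, all but Hpgds and Alox5ap. Each sequence is the 250 bases before the annotated start, read 5′ to 3′ on the gene's strand. Capitals mark matches on either strand to 4 motifs. The GC box was searched as GGGCGG and is bound by Sp factors. An ETS core was searched as AGGAAG, the letters that PU.1 and its relatives prefer. The TATA box was searched as TATAAA, and the E box, bound by helix-loop-helix factors, as CACGTG.
Tbxas1, chr4:68631635-68631884, plus strand: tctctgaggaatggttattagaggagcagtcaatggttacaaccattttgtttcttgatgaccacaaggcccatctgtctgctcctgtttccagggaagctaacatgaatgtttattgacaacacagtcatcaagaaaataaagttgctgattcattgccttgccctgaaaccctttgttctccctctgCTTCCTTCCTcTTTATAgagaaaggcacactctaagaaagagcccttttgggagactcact
Alox5, chr4:151251127-151251376, minus strand: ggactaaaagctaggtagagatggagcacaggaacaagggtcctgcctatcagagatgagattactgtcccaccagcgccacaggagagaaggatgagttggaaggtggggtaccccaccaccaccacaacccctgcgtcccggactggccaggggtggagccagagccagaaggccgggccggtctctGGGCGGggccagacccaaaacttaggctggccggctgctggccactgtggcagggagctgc
Ltc4s, chr10:35063595-35063844, minus strand: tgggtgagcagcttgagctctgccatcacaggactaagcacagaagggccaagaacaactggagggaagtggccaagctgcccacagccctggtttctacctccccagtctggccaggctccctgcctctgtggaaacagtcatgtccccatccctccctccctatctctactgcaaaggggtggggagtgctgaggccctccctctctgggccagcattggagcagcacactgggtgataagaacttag
In the Tbxas1 sequence, 2 ETS core matches on the opposite strand overlapped each other and stood beside a TATA box match, also on the opposite strand. The Alox5 sequence held 1 GC box, and the Ltc4s sequence held none of the 4 motifs. Among all 33469 promoter windows of this length, 30.5% held the GC box, 29.5% the ETS core, 12.9% the TATA box and 5.59% the E box. A match describes letters in the window and not a binding site.

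At day 1 after injury, the enzyme that releases arachidonic acid, thromboxane synthase and FLAP were upregulated, and leukotriene C4 synthase was called lower. The last call rested on sham day 1 replicate 1, without which the log2 fold change was -0.50. Of the 9 genes, 3 were higher (11.2% of all tested genes were called higher) and 1 was lower (7.93% of all tested genes). The calls rest on edgeR's quasi-likelihood test with a Benjamini-Hochberg adjusted p under 0.05. The median log2 fold change was 0.94 for these genes and -0.015 for all tested genes. At day 14, thromboxane synthase and FLAP were higher, 2 of the 9 (4.07% of all tested genes), and 5-lipoxygenase was lower, 1 of the 9 (0.365% of all tested genes). The median log2 fold change was then 0.56 against -0.031 for all genes. The day 14 calls of FLAP and 5-lipoxygenase did not hold with the 3 libraries rich in choroid plexus counts left out together. TBI and sham samples did not overlap for 5 of the 9 genes at day 1, where 30.8% of all tested genes did not, and for 6 of the 9 at day 14, against 15% of all tested genes.

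**Figure D1:**
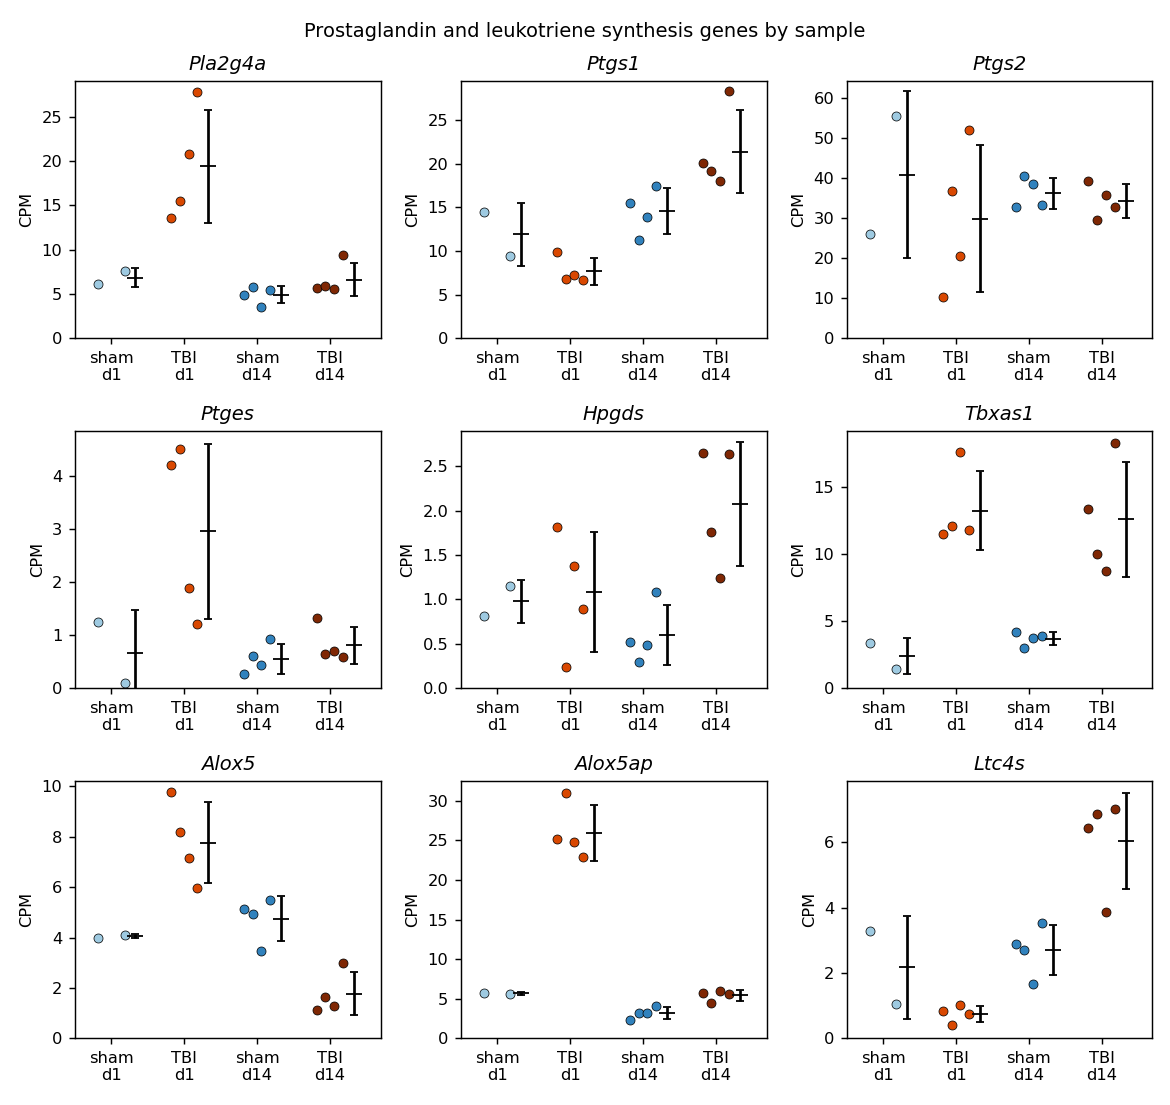
Level of each gene in CPM (counts per 1000000, linear axis) in the 14 samples; each point is a sample, and the horizontal tick and bar give the group mean and SD. Alox5ap at day 1 lay between 22.9 and 31.0 in TBI and at 5.58 and 5.77 in sham, whereas Alox5 at day 14 lay between 1.13 and 3.01 in TBI, under every sham sample.

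Pla2g4a was 6.09 and 7.61 CPM in the sham day 1 samples and 13.6, 15.5, 20.8 and 27.8 CPM in the TBI day 1 samples. All 4 injured samples were above both sham samples. Levels at day 14 were 4.85, 5.77, 3.57 and 5.39 CPM in sham and 5.70, 5.86, 5.52 and 9.34 CPM in TBI. The day 14 groups overlapped, with a single TBI sample standing above the rest. Expression was 2.83-fold higher at day 1 (log2 fold change 1.502, SE 0.32, adjusted p = 0.00483 by edgeR). At day 14 no difference was called (log2 fold change 0.43, 95% interval -0.11 to 0.97, adjusted p = 0.547 by edgeR). The change of effect between the days was not called either (1.07 on the log2 scale, 95% interval 0.22 to 1.92, adjusted p = 0.154 by edgeR). In GRCr8 this gene neighbours Ptgs2, with no protein-coding gene between them. The correlation of their log2 CPM was -0.20 over the 14 samples.

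The cyclooxygenases did not pass the test at either day. Ptgs1 was 14.4 and 9.36 CPM in sham day 1 and 9.91, 6.82, 7.24 and 6.67 CPM in TBI day 1. Only TBI replicate 1 reached into the sham range. Its levels were 15.5, 11.2, 13.8 and 17.5 CPM in sham day 14 and 20.03, 19.1, 18.04 and 28.3 CPM in TBI day 14, where the groups did not overlap. The log2 fold change was -0.64 at day 1 (95% interval -1.16 to -0.11, adjusted p = 0.0834 by edgeR) and 0.56 at day 14 (0.13 to 0.99, adjusted p = 0.189 by edgeR). The effect at day 1 minus that at day 14 was -1.19 (SE 0.32), which just missed the threshold (adjusted p = 0.0527 by edgeR). By group mean the order ran from TBI day 14 through sham day 14 and sham day 1 to TBI day 1, and the ranges of each later pair of neighbours in that order overlapped.

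Ptgs2, the inducible cyclooxygenase, was 26.1 and 55.5 CPM in sham day 1 and 10.2, 36.8, 20.4 and 51.8 CPM in TBI day 1. Both day 1 groups spread widely, and the sham samples enclosed 2 of the 4 injured ones. By contrast the 8 samples of day 14 lay close together, with 32.7, 40.5, 38.5 and 33.2 CPM in sham and 39.3, 29.4, 35.7 and 32.8 CPM in TBI. The log2 fold change was -0.45 at day 1 (95% interval -1.37 to 0.47, adjusted p = 0.491 by edgeR) and -0.08 at day 14 (-0.84 to 0.69, adjusted p = 0.977 by edgeR). The day 1 value turned to 0.19 when sham day 1 replicate 2 was left out. These intervals leave room for a change in either direction at both days. No order could be given to the 4 groups, since their ranges all overlapped.

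**Figure D2:**
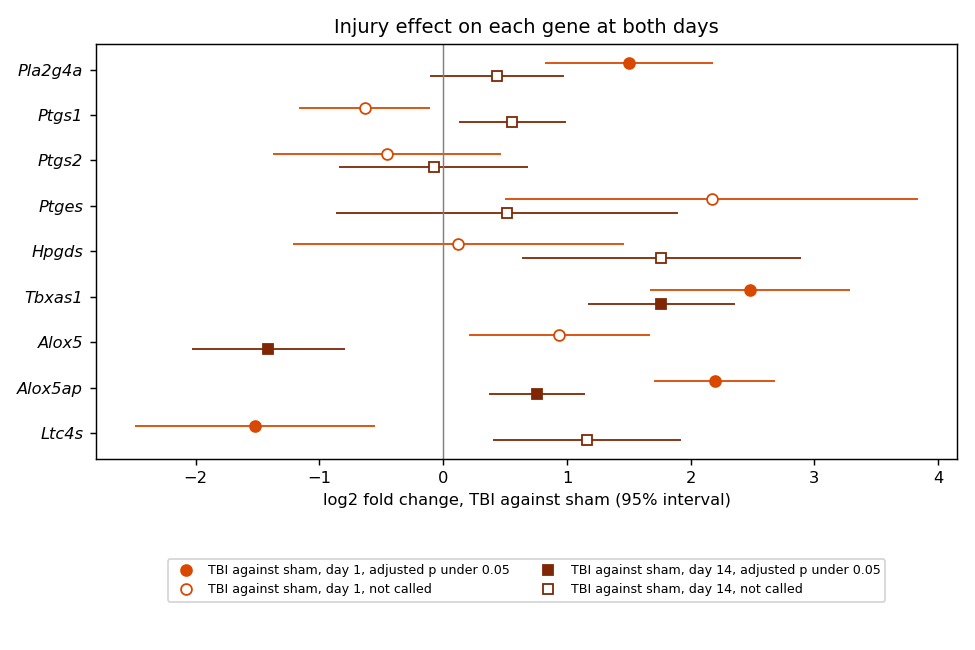
Log2 fold change of each gene, TBI against sham, at day 1 (circles) and day 14 (squares); bars are 95% intervals of the edgeR fit, and filled symbols have an adjusted p under 0.05. Tbxas1 and Alox5ap are filled and to the right at both days, Alox5 and Ltc4s lie on opposite sides of 0 at the 2 days, and both intervals of Ptgs2 include 0.

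Of the terminal synthases, Tbxas1 was upregulated at both days. Its levels were 3.34 and 1.43 CPM in sham day 1 and 11.5, 12.1, 17.6 and 11.8 CPM in TBI day 1. At day 14 they were 4.19, 3.00, 3.73 and 3.86 CPM in sham and 13.3, 9.96, 8.74 and 18.3 CPM in TBI. Every injured sample was above every sham sample of either day, while the TBI groups of the 2 days overlapped each other, as did the sham groups. The increase was 5.58-fold at day 1 (log2 fold change 2.48, SE 0.38, adjusted p = 0.000456 by edgeR) and 3.40-fold at day 14 (1.76, SE 0.28, adjusted p = 0.00106 by edgeR). The 2 effects differed by 0.72 on the log2 scale (95% interval -0.23 to 1.66), which was not called (adjusted p = 0.403 by edgeR). Between the sham groups it was not called (-0.64, adjusted p = 0.222 by edgeR), but it was with the 3 libraries rich in choroid plexus counts left out (-1.36, adjusted p = 0.0368 by edgeR).

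Ptges, the inducible prostaglandin E synthase, had 23 and 2 counts in sham day 1, against 81, 111, 41 and 27 in TBI day 1. In CPM these were 1.24 and 0.092 for sham and 4.20, 4.51, 1.88 and 1.21 for TBI. The sham sample with 23 counts was the library with the most choroid plexus counts, and it reached the lowest injured sample. The log2 fold change of 2.17 did not pass the test (95% interval 0.50 to 3.84, adjusted p = 0.0651 by edgeR). Without that sham library it was 4.90 and passed (adjusted p = 0.00852 by edgeR), but it was then set against a single sham sample of 2 counts. At day 14 the levels were 0.262, 0.601, 0.433 and 0.925 CPM in sham and 1.33, 0.644, 0.696 and 0.581 CPM in TBI, which overlapped (log2 fold change 0.51, 95% interval -0.87 to 1.89, adjusted p = 0.862 by edgeR).

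Hpgds had few reads, from 5 to 50 counts per sample. It was 0.808 and 1.15 CPM in sham day 1 and 1.82, 0.244, 1.38 and 0.895 CPM in TBI day 1, and injured samples lay on both sides of the sham samples. At day 14 it was 0.524, 0.300, 0.487 and 1.09 CPM in sham and 2.65, 1.76, 1.24 and 2.64 CPM in TBI. All 4 injured samples then lay above all sham samples, yet the log2 fold change of 1.76 did not pass the test (95% interval 0.64 to 2.89, adjusted p = 0.0865 by edgeR). At day 1 it was 0.12 (95% interval -1.21 to 1.46, adjusted p = 0.912 by edgeR).

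In the leukotriene arm, Alox5ap was upregulated at both days. It was 5.77 and 5.58 CPM in sham day 1 and 25.1, 31.0, 24.8 and 22.9 CPM in TBI day 1, a gap larger than the spread within either group. The day 14 values were 2.36, 3.18, 3.19 and 4.14 CPM in sham and 5.77, 4.45, 6.01 and 5.60 CPM in TBI. The injured samples were again all above their sham samples, and lay around the level of the day 1 sham samples. The increase was 4.57-fold at day 1 (log2 fold change 2.19, SE 0.23, adjusted p = 2.08e-05 by edgeR) and 1.69-fold at day 14 (0.76, SE 0.18, adjusted p = 0.0241 by edgeR). The effect was larger at day 1 by 1.44 on the log2 scale (SE 0.28, adjusted p = 0.0122 by edgeR), 1 of 3 such calls among the 9 genes (3.68% of all tested genes differed in either direction). The sham groups themselves differed for this gene, higher at day 1 by 0.81 (SE 0.21, adjusted p = 0.0186 by edgeR), a call lost without either day 1 sham sample (adjusted p = 0.0595 and 0.0773). It was the single gene of the 9 called between the sham groups, where 19.1% of all tested genes were called in either direction. Its call at day 14 was lost when any of 6 single samples was left out (adjusted p from 0.0613 to 0.0812). With the 3 libraries rich in choroid plexus counts left out together it was 0.84 (adjusted p = 0.0655 by edgeR), and the difference between the sham groups was 0.79 (adjusted p = 0.0774 by edgeR).

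Alox5, the enzyme that FLAP serves, took another course. Its levels were 3.99 and 4.10 CPM in sham day 1 and 9.75, 8.20, 7.15 and 5.95 CPM in TBI day 1. All injured samples were above both sham samples, yet the log2 fold change of 0.94 did not pass the test (95% interval 0.20 to 1.67, adjusted p = 0.0686 by edgeR). At day 14 it was 5.11, 4.93, 3.46 and 5.50 CPM in sham and 1.13, 1.64, 1.29 and 3.01 CPM in TBI. Every injured sample was now below every sham sample of either day, and expression was 2.67-fold lower (log2 fold change -1.41, SE 0.29, adjusted p = 0.0079 by edgeR). Subtracting the day 14 effect from the day 1 effect gave 2.35 (SE 0.45), which passed the test (adjusted p = 0.0117 by edgeR). By mean level the groups ran from TBI day 1 through sham day 14 and sham day 1 to TBI day 14, and only the sham groups overlapped as neighbours. The call at day 14 held when any single sample was left out (log2 fold change -1.80 to -1.26, highest adjusted p = 0.0315 by edgeR). It did not hold when all 3 libraries rich in choroid plexus counts were left out together, which leaves 2 injured samples at day 14 (-1.15, adjusted p = 0.163 by edgeR).

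Ltc4s, the next enzyme, had the opposite sign of effect from Alox5 at each day. It had 61 and 23 counts in sham day 1 and 16, 10, 22 and 17 counts in TBI day 1, or 3.29 and 1.06 CPM against 0.830, 0.406, 1.01 and 0.761 CPM. The injured samples were all below both sham samples, but the lower sham sample was only 1 count above the highest of them. At day 14 it was 2.88, 2.70, 1.68 and 3.54 CPM in sham and 6.43, 6.85, 3.88 and 7.02 CPM in TBI, with all injured samples above all sham samples. Expression was 2.87-fold lower at day 1 (log2 fold change -1.52, SE 0.45, adjusted p = 0.0299 by edgeR), while the log2 fold change of 1.16 at day 14 did not pass the test (95% interval 0.40 to 1.92, adjusted p = 0.0957 by edgeR). The effects of the 2 days differed by -2.68 (SE 0.58, adjusted p = 0.0193 by edgeR). The day 1 call rested on sham day 1 replicate 1, the library with the most choroid plexus counts. Without it the log2 fold change was -0.50 (adjusted p = 0.503 by edgeR), and the effects of the days then differed by -1.67 (adjusted p = 0.118 by edgeR). With TBI day 1 replicate 2 left out, the day 1 value was -1.31 and not called (adjusted p = 0.0668 by edgeR).

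**Figure D3:**
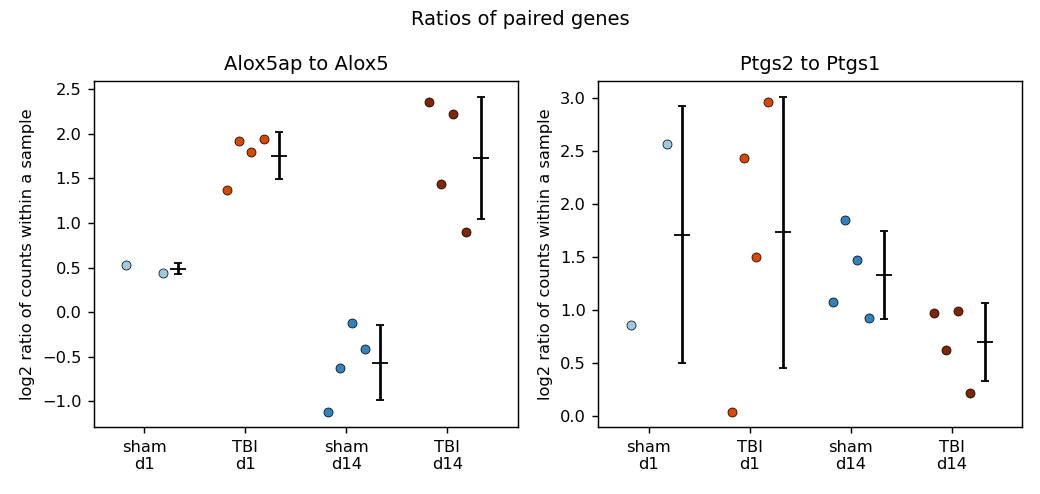
Log2 ratio of the counts of 2 genes within each sample, Alox5ap to Alox5 (left) and Ptgs2 to Ptgs1 (right); points are samples, and ticks and bars give mean and SD. The Alox5ap to Alox5 ratio of every TBI sample lies above that of every sham sample, whereas the Ptgs2 to Ptgs1 ratios of TBI and sham overlap at both days.

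The ratio of FLAP to 5-lipoxygenase counts within a sample is free of any scaling between libraries. Its mean log2 was 0.49 ± 0.063 (SD, n = 2) for sham and 1.75 ± 0.27 (SD, n = 4) for TBI at day 1. At day 14 the sham rats were at -0.57 ± 0.42 (SD, n = 4) and the injured rats at 1.73 ± 0.69 (SD, n = 4). The injured groups of the 2 days had close mean ratios, reached at day 1 by a rise of Alox5ap and at day 14 with lower Alox5 and higher Alox5ap. For Ptgs2 to Ptgs1 the mean log2 ratio at day 1 was 1.71 ± 1.21 (SD, n = 2) for sham and 1.73 ± 1.28 (SD, n = 4) for TBI. The day 14 values were 1.33 ± 0.42 (SD, n = 4) for sham and 0.70 ± 0.37 (SD, n = 4) for TBI. Both pairs of groups overlapped. No test was run on these ratios, and since the genes differ in length a ratio of 0 on this scale has no meaning of its own.

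Across the 14 samples, some of these genes followed each other closely. The correlation of log2 CPM was 0.94 between Ptgs1 and Ltc4s, 0.91 between Pla2g4a and Alox5ap, and -0.77 between Alox5 and Ltc4s. These are descriptions over samples that fall into 4 groups and share depth and tissue composition. The genes whose levels were most like each member by the same measure were Litaf (0.99), H19 (0.98) and Serpina3n (0.98) for Alox5ap, and Myo1f (0.98), Sp140 (0.98) and Cyth4 (0.98) for Tbxas1. For Alox5 they were Mybpc1, Eltd1 and Erg, each at 0.90. Ltc4s was closest to Pltp (0.96), Edn3 (0.96) and Tpp1 (0.96), and Ptgs1 to Edn3 (0.97), Slc15a2 (0.94) and Sema3b (0.94), so that the last 2 members shared a nearest gene. Pla2g4a was closest to Pcna (0.97), Pabpc1 (0.96) and Lactb (0.96), Ptgs2 to Rab40b (0.96), Tanc1 (0.94) and Rnmt (0.93), Ptges to Adm (0.96), RGD1564036 (0.93) and Tmem88 (0.93), and Hpgds to Mttp (0.87), Pld1 (0.84) and Manba (0.84).

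Several of these enzymes are known from blood and myeloid cells, so markers of those cells were read beside them. To be set beside the counts of each marker list, 11.2% of all tested genes were called higher and 7.93% lower at day 1. At day 14 these shares were 4.07% and 0.365%. Of 14 microglia genes tested, 4 were higher and 4 lower at day 1, and 11 were higher at day 14. Their summed level was 602 to 948 CPM in sham day 1, 987 to 1273 CPM in TBI day 1, 657 to 859 CPM in sham day 14 and 1354 to 2406 CPM in TBI day 14. The day 1 sum mixed genes that went both ways. Mean CPM in sham and TBI day 1 was 59.4 and 187 for C1qb, 43.9 and 145 for C1qc and 19.8 and 123 for Itgam. It was 21.1 and 5.65 for Tmem119, 24.7 and 13.4 for P2ry12 and 64.5 and 24.6 for Selplg. Infiltrating monocyte genes were higher for 4 of 6 at day 1, with sums of 166 to 232 CPM in sham and 822 to 1255 CPM in TBI, and for 2 of 6 at day 14 (171 to 214 and 187 to 372 CPM). Neutrophil genes were higher for 5 of 7 at day 1 (8.81 to 13.3 and 47.4 to 102 CPM) and for 1 of 7 at day 14 (9.41 to 12.8 and 18.1 to 31.9 CPM). Csf3r was the main contributor to the higher day 14 sum (mean 5.33 CPM in sham and 18.5 CPM in TBI). Means of the other day 14 genes were low or fell, with Mmp9 at 4.70 and 3.11 CPM, S100a8 at 0.101 and 0.0775 CPM and S100a9 at 0.245 and 0.580 CPM. Perivascular macrophage genes were higher for 4 of 7 at day 1 (8.53 to 16.6 and 46.0 to 74.2 CPM) and for 0 of 7 at day 14 (6.73 to 10.5 and 7.69 to 19.0 CPM). At day 14 the latter had 1 gene at an unadjusted p under 0.05 by edgeR, and 0 were called by limma-voom or DESeq2. As for Tbxas1 and Alox5ap, the sums of TBI and sham did not overlap for any of these 4 lists at day 1 or for microglia and neutrophils at day 14. Astrocyte sums did not overlap either, with 5134 to 7496 CPM in sham and 11534 to 17912 CPM in TBI at day 1. At day 14 they were 4302 to 5539 and 7892 to 12131 CPM. Of 9 astrocyte genes tested, 1 was higher and 2 lower at day 1, and 1 was higher and 0 lower at day 14. Gfap was the main contributor to the higher sums, with means of 1255 and 10740 CPM at day 1 and 1484 and 6185 CPM at day 14. The part of any of these cells in the 2 results was not tested.

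Endothelial genes were higher for 2 of 10 at day 1 and for 0 of 10 at day 14, by edgeR (1 at an unadjusted p under 0.05 at day 14, where limma-voom called 0 and DESeq2 called 1). Their summed level was 350 to 639 CPM in sham and 605 to 1099 CPM in TBI at day 1, and 468 to 619 CPM in sham and 387 to 546 CPM in TBI at day 14. Platelets are the classical source of thromboxane. Of 5 platelet genes in the table, 2 were tested and 0 were called at either day by any of the 3 tools (0 and 1 at an unadjusted p under 0.05 by edgeR at day 1 and day 14). Of these genes Gp1bb was at 0 in all samples, and the summed level was 0.808 to 1.11 CPM in sham and 0.403 to 2.13 CPM in TBI at day 1, and 0.841 to 2.12 CPM in sham and 2.53 to 2.90 CPM in TBI at day 14. The day 14 sums thus did not overlap, as for Tbxas1, with Treml1 the main contributor (mean 0.961 CPM in sham and 2.44 CPM in TBI), and the part of platelets in its level was not tested. Mast cells are a classical source of prostaglandin D2 and leukotriene C4. Of 9 mast cell genes only 1 could be tested, which edgeR and limma-voom did not call at either day and DESeq2 called at day 1 (unadjusted p under 0.05 by edgeR for 1 and 0). Among the others Cpa3, Mcpt1 and Mcpt2 were at 0 in all samples, and the sum was 0.507 to 4.10 CPM in sham day 1, 0.259 to 0.963 CPM in TBI day 1, 1.85 to 2.56 CPM in sham day 14 and 1.39 to 3.28 CPM in TBI day 14. This sum was mainly Hdc, with means of 1.87, 0.492, 1.78 and 2.11 CPM in the same order of groups. No other gene of the list had more than 11 counts in any sample, so the sum says little about mast cells. By group mean, Ltc4s was also lowest in the group where Hdc was lowest. In the list sum, however, 1 of the 2 sham day 1 samples (0.507 CPM) lay within the TBI day 1 range. The part of mast cells in the level of Ltc4s was not tested.

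Other genes of the pathway were read from 5 lists written from general knowledge. Beside the counts of each list stand the shares over all tested genes. These were 11.2% called higher and 7.93% lower at day 1, and 4.07% and 0.365% at day 14. Upstream, among genes of phospholipases and arachidonate release, 16 were tested, of which 2 were higher and 4 lower at day 1, and 2 were higher and 0 lower at day 14, with medians of -0.06 and 0.18 on the log2 scale. Anxa1, a glucocorticoid-induced inhibitor of phospholipase A2, was 1.24 and 4.36 CPM in sham day 1 and 20.1 to 35.7 CPM in TBI day 1 (log2 fold change 3.37, SE 0.51, adjusted p = 0.000402 by edgeR). It stayed higher at day 14 (1.75, SE 0.37, adjusted p = 0.00957 by edgeR). Pla2g2d, a secreted phospholipase A2, had 3 and 5 counts in sham day 1 against 34 to 113 in TBI (adjusted p = 0.0048 by edgeR). Pla2g7, which degrades platelet-activating factor, was higher at day 14 (1.09, SE 0.18, adjusted p = 0.00161 by edgeR), whereas no call was made at day 1 (0.03, adjusted p = 0.943 by edgeR).

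Of the genes that make and break the endocannabinoid 2-AG, a further source of arachidonate in brain, Dagla and Mgll were lower at day 1 and Daglb was not called (-0.04, 95% interval -0.45 to 0.38, adjusted p = 0.918 by edgeR). Dagla fell by 0.76 on the log2 scale (SE 0.15, adjusted p = 0.00288 by edgeR) and Mgll by 0.88 (SE 0.20, adjusted p = 0.00654 by edgeR). At day 14 neither was called, with log2 fold changes of 0.06 and -0.05. Neuronal markers were also lower at day 1, for 3 of 9 genes of excitatory neurons (summed level 8778 to 9575 CPM in sham and 3238 to 6946 CPM in TBI) and 3 of 6 of inhibitory neurons (527 to 738 and 302 to 456 CPM). Their part in the levels of Dagla and Mgll was not tested. Pla2g2c was lower at day 1 as well (-1.12, SE 0.29, adjusted p = 0.0148 by edgeR). Pla2g5 was called lower at day 1 (-3.66, SE 1.13, adjusted p = 0.0348 by edgeR), but its groups overlapped, with 520 and 16 counts in the sham samples, the larger in the library with the most choroid plexus counts, and 13 to 40 in TBI.

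From the list of other synthases and lipoxygenases, which also holds Cotl1, neither a synthase nor a lipoxygenase, 16 genes were tested. Of these, 3 were higher and 0 lower at day 1, and 2 were higher and 1 lower at day 14. The medians were 0.36 and 0.0071 on the log2 scale. The leukotriene A4 made by Alox5 has a second fate, hydrolysis to leukotriene B4 by Lta4h, and Lta4h was higher at day 1 by a small margin (0.44, SE 0.13, adjusted p = 0.0295 by edgeR). It was 38.0 and 42.1 CPM in the sham samples and 47.0 to 63.0 CPM in TBI. Of the microsomal glutathione transferases related to Ltc4s, Mgst1 was higher at both days (1.66, SE 0.32, adjusted p = 0.00243 and 1.31, SE 0.25, adjusted p = 0.00425 by edgeR) and Mgst2, which can also make leukotriene C4, at day 1 (2.51, SE 0.58, adjusted p = 0.00829 by edgeR). Mgst3 was lower at day 14 (-0.59, SE 0.15, adjusted p = 0.036 by edgeR). Alox12, a 12-lipoxygenase, was 2.60 to 3.93 CPM in sham day 14 and 9.95 to 12.99 CPM in TBI day 14 (1.87, SE 0.25, adjusted p = 0.000266 by edgeR). At day 1 it was not called (0.66, 95% interval -0.00088 to 1.33, adjusted p = 0.146 by edgeR). Ptgds, another prostaglandin D2 synthase gene, was at 93.3 to 1313 CPM, against 0.244 to 2.65 CPM for Hpgds. It was not called at day 1 (-1.27, adjusted p = 0.243 by edgeR) or day 14 (0.53, adjusted p = 0.850 by edgeR). Ptges2 (30.2 to 53.9 CPM) and Ptges3 (48.8 to 237 CPM), other prostaglandin E synthase genes, were not called at either day (lowest adjusted p = 0.725 by edgeR).

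**Figure D4:**
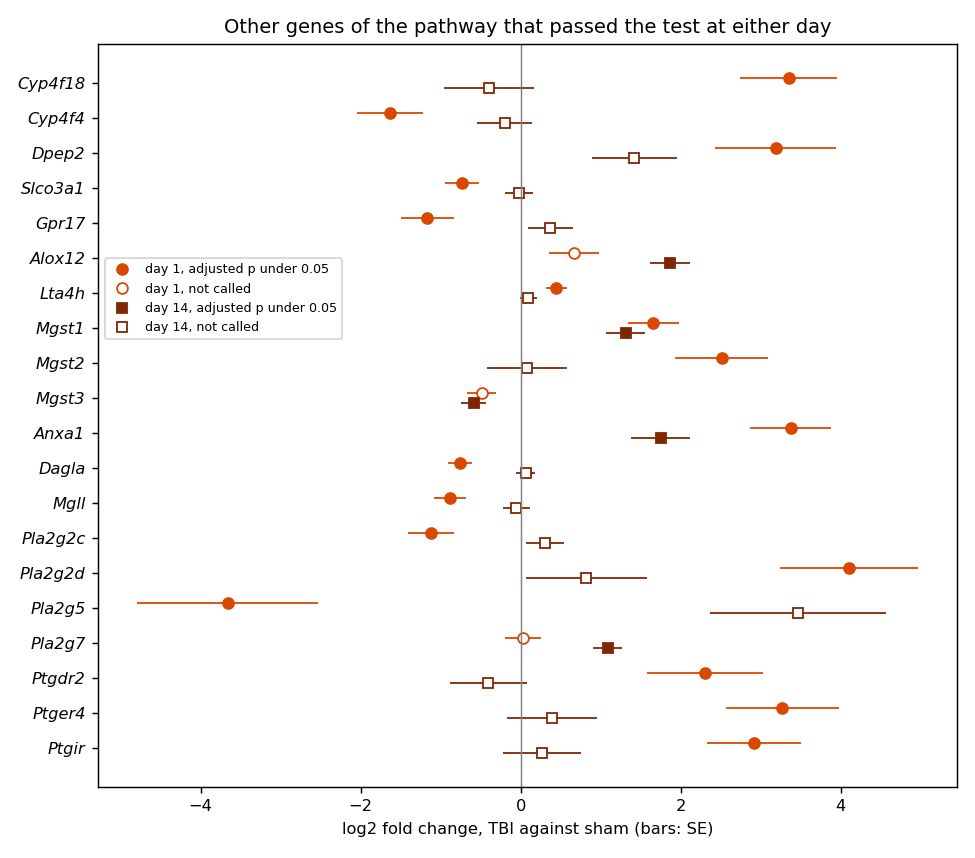
Log2 fold change, TBI against sham, of the 20 other pathway genes with an adjusted p under 0.05 at day 1 or day 14; circles are day 1, squares day 14, bars are SE, and filled symbols passed the test. Most filled symbols are of day 1, and Anxa1 and Mgst1 are filled at both days.

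Receptor calls came at day 1, and at day 14 there were 0 by edgeR, limma-voom or DESeq2, and 0 at an unadjusted p under 0.05 by edgeR. Of 9 genes tested from the list of prostanoid receptors, 3 were higher at day 1, all from few counts. The list also holds Ptgfrn, a regulator of such a receptor and not itself a prostanoid receptor. Ptger4, a prostaglandin E2 receptor, had 2 and 5 counts in sham and 14 to 68 in TBI (adjusted p = 0.00577 by edgeR). Ptgir, the prostacyclin receptor, had 3 counts in each sham sample and 23 to 28 in TBI (adjusted p = 0.00349 by edgeR), and Ptgdr2, a prostaglandin D2 receptor, had 2 in each sham sample and 7 to 18 in TBI (adjusted p = 0.0375 by edgeR). Of these 3, limma-voom and DESeq2 called Ptger4 and Ptgir but not Ptgdr2 (adjusted p = 0.0606 and 0.0537). Ptgdr2 was also lower in sham day 1 than in sham day 14 (-2.26 on the log2 scale, adjusted p = 0.0427 by edgeR). Its TBI day 1 range of 0.313 to 0.825 CPM lay within the sham day 14 range of 0.300 to 0.865 CPM. Of the leukotriene receptors only Gpr17, an orphan relative expressed in oligodendrocyte precursors, passed the filter. It was 24.3 and 31.4 CPM in sham day 1 and 11.2 to 15.04 CPM in TBI day 1 (-1.17, SE 0.33, adjusted p = 0.0235 by edgeR). The sham day 14 samples were at 11.8 to 26.4 CPM and overlapped TBI day 1. Ltb4r, Ltb4r2, Cysltr1 and Cysltr2 had too few counts to be tested.

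Of 14 genes of eicosanoid inactivation and transport tested, 2 were higher and 2 lower at day 1, and 0 were called at day 14 by edgeR (1 at an unadjusted p under 0.05, 0 called by limma-voom and 1 by DESeq2). The day 1 counts lie near the shares over all tested genes (11.2% higher and 7.93% lower). Cyp4f18, whose product degrades leukotriene B4, had 4 and 7 counts in sham day 1 and 28 to 116 in TBI (3.35, SE 0.60, adjusted p = 0.00167 by edgeR). Dpep2, a dipeptidase that converts leukotriene D4 to leukotriene E4, had 0 and 12 counts in sham and 40 to 82 in TBI (adjusted p = 0.00966 by edgeR). Cyp4f4 was lower (-1.63, SE 0.41, adjusted p = 0.0136 by edgeR), as was Slco3a1, a transporter of prostaglandins (-0.73, SE 0.21, adjusted p = 0.0257 by edgeR). Slco2a1, a transporter gene of the same list, went the other way at day 1 but was not called (1.44, SE 0.50, adjusted p = 0.0578 by edgeR). Its levels did not overlap, with 1.06 and 6.30 CPM in sham day 1 and 7.21 to 12.7 CPM in TBI day 1.

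With the 3 libraries rich in choroid plexus counts left out, which leaves a single sham sample at day 1, 8 of the 17 day 1 calls and 4 of the 5 day 14 calls among these other pathway genes held. At day 1 Pla2g2d, Dagla, Anxa1, Mgst1, Mgst2, Ptgir, Dpep2 and Cyp4f18 held. The calls lost at day 1 were those of Pla2g2c, Pla2g5, Mgll, Lta4h, Ptger4, Ptgdr2, Gpr17, Slco3a1 and Cyp4f4 (adjusted p from 0.0617 for Ptger4 to 0.539 for Pla2g5 by edgeR). Pla2g5 also turned in direction, from -3.66 to 0.60 on the log2 scale. At day 14 only Mgst3 was lost (-0.61, adjusted p = 0.149 by edgeR).

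Neighbouring genes can share reads with some members. In GRCr8 the span of Ltc4s overlaps Mgat4b, that of Hpgds overlaps Smarcad1 and that of Tbxas1 overlaps Parp12, and whether the counting used strand is not given in the sources used here. No value of Parp12 is given here, so this check leaves Tbxas1 out, and shared reads of Tbxas1 were not checked. The log2 fold change of Mgat4b was 0.18 at day 1 and 0.05 at day 14, and that of Smarcad1 was -0.04 and -0.06. Neither Mgat4b nor Smarcad1 was called at either day (adjusted p = 0.471 and 0.957 for Mgat4b, and 0.889 and 0.938 for Smarcad1 by edgeR).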

How the data were processed

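RNA-seq libraries (stranded mRNA kit, single-end) from 14 rats were used. The deposited values are whole, unnormalized counts per UCSC gene, which the authors obtained with STAR 2.4.2a on rn5 and featureCounts 1.5.0. Samples were grouped by their labels. Genes were tested with edgeR 4.0.16 in R 4.3.3 (TMM scaling, filterByExpr by group, glmQLFit and its quasi-likelihood test), with the 4 groups as means of a joint model of the 14 libraries. P-values are two-sided, adjusted by Benjamini-Hochberg over 12875 genes, threshold 0.05. Intervals are 95% from the same fit. The fit pools the spread of all groups, so the 2 sham day 1 samples were assumed to vary like the rest. By chi-square, replicates differed more at day 1 than in most pairs at day 14, so adjusted p-values at day 1 may be too small.

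The 9 members and all gene lists were chosen with earlier results of these data known. All members are named. Other pathway genes are named when called at either day. Some are named without a call, such as Daglb and Slco2a1. For each member, the 3 genes most correlated in log2 CPM (prior count 2) are named. Motifs were chosen with the sequences in view. Promoter letters are from RefSeq (GRCr8), and coordinates of the 2 builds were not mixed. The H3K4me3 peak lists were not used here, since they name no genes. The fit was tested on simulated data. Alternatives used limma 3.58.1 and DESeq2 1.42.0.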

Additional observations from a re-analysis of the deposited data

Results flagged for a closer look

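Among 27 groups of 4 samples checked (9 genes in 3 groups), 3 held a sample far from the other 3 by Dixon's criterion, which chance alone meets in about 1 of 20 groups. Pla2g4a was 9.34 CPM in TBI day 14 replicate 4, against 5.52 to 5.86 CPM in the other 3. Tbxas1 was 17.6 CPM in TBI day 1 replicate 3, against 11.5 to 12.1 CPM. Ltc4s was 3.88 CPM in TBI day 14 replicate 3, against 6.43 to 7.02 CPM, and that library had 8900 CPM of choroid plexus markers.

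The injury effect differed between the days for 3 genes by the test of the difference itself: by 2.35 on the log2 scale for Alox5, by 1.44 for Alox5ap and by -2.68 for Ltc4s (day 1 minus day 14). The first 2 held when any single sample was left out (highest adjusted p = 0.0426 for Alox5 and 0.0451 for Alox5ap by edgeR), and Ltc4s did not hold without sham day 1 replicate 1 (-1.67, adjusted p = 0.118 by edgeR). None of the 3 passed when the 3 libraries rich in choroid plexus counts were left out together (2.06, adjusted p = 0.102 for Alox5, 1.37, adjusted p = 0.084 for Alox5ap, and -1.85, adjusted p = 0.141 for Ltc4s by edgeR).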

How the results depend on the processing

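With 4 genes called at day 1, 3 at day 14, 3 for the difference between days and 1 between the sham groups, other settings gave the following counts. Day 1 gave 7 with sham day 14 as the baseline, where 46% of all tested genes were called, and 7 with all 6 sham samples as the baseline (34.4%), against 19.1% of all genes with sham day 1. Day 14 gave 5 with DESeq2 and 5 when only its 2 groups were fitted. For these and the settings that follow, the share of all tested genes called was not taken. A change in these counts may thus follow a change in calls over all genes. An adjusted p under 0.01 left 0 for the difference between days and 0 between the sham groups. Leaving out each sample in turn gave 3 to 6, 2 to 4, 2 to 4 and 0 to 1 (0 without sham day 1 replicate 2), where a lone sham sample is assumed to vary like the other groups. Leaving out together the 3 libraries rich in choroid plexus counts, chosen after seeing the data, gave 4 at day 1 (Ptges in, Ltc4s out), 1 at day 14 (Tbxas1), 0 between days and 1 between the sham groups (Tbxas1 in place of Alox5ap).

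Direction turned in genes that were not called: Hpgds at day 1 with limma-voom (-0.23), a replicate block (-0.20) or those 3 libraries left out (-0.11), Ptgs2 at day 14 with the last (0.014), and Ptges between the sham groups (-0.58 with limma-voom, -0.36 with the block, -2.52 with the last). Leaving out single samples also turned Hpgds (-0.24 to 0.46) and Ptgs2 (-0.90 to 0.19) at day 1, Ptgs2 between days (-0.82 to 0.27), and between the sham groups Ptges (-2.52 to 1.13), Ptgs2 (-0.47 to 0.62) and Ltc4s (-1.34 to 0.28). The cause was not tested.

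Ltc4s at day 1 was also not called with limma-voom (adjusted p = 0.102), with the block (0.0559) or with only 2 groups fitted (0.205), nor Alox5ap at day 14 with limma-voom (0.0812) or the block (0.0553), nor Ltc4s between the days with limma-voom (0.0566). Ptges and Alox5 at day 1 passed with limma-voom (0.0427 and 0.0425) and DESeq2 (0.0232 and 0.0305), and Ptges with the block (0.0478). Hpgds and Ltc4s at day 14 passed with DESeq2 (0.0251 and 0.0272), as did Ptgs1 between the days with DESeq2 (0.0116) or the block (0.0353). Same-numbered samples did not deviate together (5 of 18 pairs over a correlation of 0.1), so numbers were not taken as pairs. With the replicate block 4, 2, 4 and 1 genes were called, and 3 of 14 samples correlated best with their own number. Size factors of another kind and other count filters changed no call of a tested gene, and a prior count of 0.5 moved 0 of 36 group means by over 1 SD. The comparison at day 1 rests on 2 sham samples, and Hpgds, Ptges and Ltc4s often had under 30 counts.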
